A study of Mus musculus with 6 samples.

Results

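The 10 genes described here control entry into the cell cycle: the D cyclin genes Ccnd1, Ccnd2 and Ccnd3, the kinase genes Cdk4 and Cdk6, the inhibitor genes Cdkn1b, Cdkn1c, Cdkn2c and Cdkn2d, and the retinoblastoma gene Rb1. They were chosen by name, for their role, with earlier results of these data known. They come from 22180 genes measured on the arrays, and all 10 had a probe set annotated to no other gene. RNA came from LSK cells, the lineage-negative, Sca1-positive and cKit-positive fraction of mouse bone marrow that holds the stem cells and multipotent progenitors. Marrow donors were Tifab+/+ (WT, 3 arrays) or Tifab-/- (KO, 3 arrays), and the comparison asks how loss of Tifab alters expression in these cells. In both groups the hosts were Boy/J mice given 7.0 Gy and then 4.75 Gy after 3 hours. The labelled 3 months may be an age or a time since transplantation. The sources used here do not say how the Tifab allele was made, whether host cells remained, or whether the sort selected donor cells.

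Cells leave G1 when D cyclins, made in answer to growth factors, bind CDK4 or CDK6 and the complex phosphorylates RB, which then releases E2F transcription factors to switch on the genes of DNA replication. INK4 inhibitors, among them p18 (Cdkn2c) and p19 (Cdkn2d), bind CDK4 and CDK6 and keep D cyclins off. CIP/KIP inhibitors, among them p27 (Cdkn1b) and p57 (Cdkn1c), bind assembled cyclin and kinase complexes. In blood stem cells this switch separates long quiescence from division: CDK6 is known to promote exit from quiescence, p57 to maintain it, and p18 to limit self-renewal.

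Promoter sequence was available for 6 of the 10 genes from RefSeq (GRCm38.p6), and the windows used here are the 250 bases before a transcript start. The windows of Cdkn2c and Cdk4 are shown because Cdkn2c had the smallest p among the 10 genes, and Cdk4 is the kinase whose level stayed closest to equal between the groups. Capitals mark matches, on either strand, to an E2F-type core (TTCCCGC or its complement GCGGGAA), an E-box (CACGTG, the letters bound by MYC proteins) or a GC box (GGGCGG or CCGCCC). No match overlapped another.
Cdkn2c, chr4:109666757-109667006, minus strand: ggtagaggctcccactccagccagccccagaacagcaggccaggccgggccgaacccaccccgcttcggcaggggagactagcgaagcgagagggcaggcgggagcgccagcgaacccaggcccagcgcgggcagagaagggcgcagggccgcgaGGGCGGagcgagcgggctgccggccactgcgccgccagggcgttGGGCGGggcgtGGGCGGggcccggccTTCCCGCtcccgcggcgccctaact
Cdk4, chr10:127063285-127063534, plus strand: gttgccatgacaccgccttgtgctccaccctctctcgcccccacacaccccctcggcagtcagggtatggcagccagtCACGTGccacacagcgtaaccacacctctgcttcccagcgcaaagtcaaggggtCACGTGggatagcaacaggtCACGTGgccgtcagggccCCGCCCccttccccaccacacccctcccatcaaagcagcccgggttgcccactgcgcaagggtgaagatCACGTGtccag
The Cdkn2c window held 1 E2F-type core and 3 GC boxes. Cdk4 had 4 E-boxes and 1 GC box in its window. Across 32851 windows of the same length, 3.82% held the E2F-type core, 6.02% an E-box and 32.7% a GC box. Cdkn1b had 1 GC box, and Ccnd3 had 2 GC boxes in its outer window and 1 in a window inside the gene. The windows of Cdk6 (1 E-box) and Cdkn2d (3 GC boxes) and a second window of Cdkn2c (no match) overlap the annotated span of their gene and may hold transcribed sequence. Each match describes letters in a window and does not show binding.

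Values are log2 signals of probe sets as deposited, so a difference of 1 is a doubling, and signals of different genes cannot be ranked against each other. Differences are KO minus WT, by label. The array medians lay between 4.05 and 4.10. Kit, the receptor used in the sort, read 9.41 to 9.69 over the 6 arrays and Cd34 10.32 to 10.66. Of the lineage genes, the T cell genes Cd4, Cd8a and Cd3e read 3.33 to 4.30, 3.30 to 3.90 and 3.80 to 5.73, and the NK cell genes Klrb1c and Ncr1 2.98 to 3.49 and 2.93 to 3.91. The myeloid genes Itgam and Ly6g read 5.56 to 6.14 and 4.36 to 6.52, and the B cell gene Cd79a 5.44 to 8.01, so that the last 2 varied widely between arrays. Ly6a, the gene of Sca1, was not analysed here. Tifab itself read 4.99, 5.37 and 5.53 in the WT arrays and 5.21, 5.12 and 5.26 in the KO arrays. These values overlap and give no check of the labels. The 6 samples are bulk RNA, in which fewer cells of a type and less RNA per cell cannot be told apart.

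None of the 10 genes passed an adjusted p of 0.05 in limma, and 0 of 22180 genes (0%) did. At an unadjusted p under 0.05 there were 4: Cdkn2c, Cdk6 and Cdkn1c had higher values in the KO arrays and Cdkn2d had lower values. Over all genes 10.3% reached this level, 4.74% with higher and 5.51% with lower values in KO. The WT and KO arrays did not overlap for 3 of the 10, Cdkn2c, Cdk6 and Cdkn1c, all higher in KO, where 7.75% of all genes were separated in this direction and 8.37% in the other. The median change of the 10 was -0.06, beside 0.00 over all genes. The 10 were chosen with earlier results of these data known, and no set test was run. The count of 4 is sensitive to the model and to single arrays: it was 1 without moderation of the spread, 2 after quantile normalization or cyclic loess, 3 without WT replicate 1, 2 without WT replicate 2, WT replicate 3 or KO replicate 3, and 1 without KO replicate 1 or KO replicate 2. In the fits without 1 array, 7.35% to 12.2% of all genes reached this level, the lowest share being that without KO replicate 1. The share of all genes is not given for the other settings, so those counts cannot be set beside it.

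**Figure D1:**
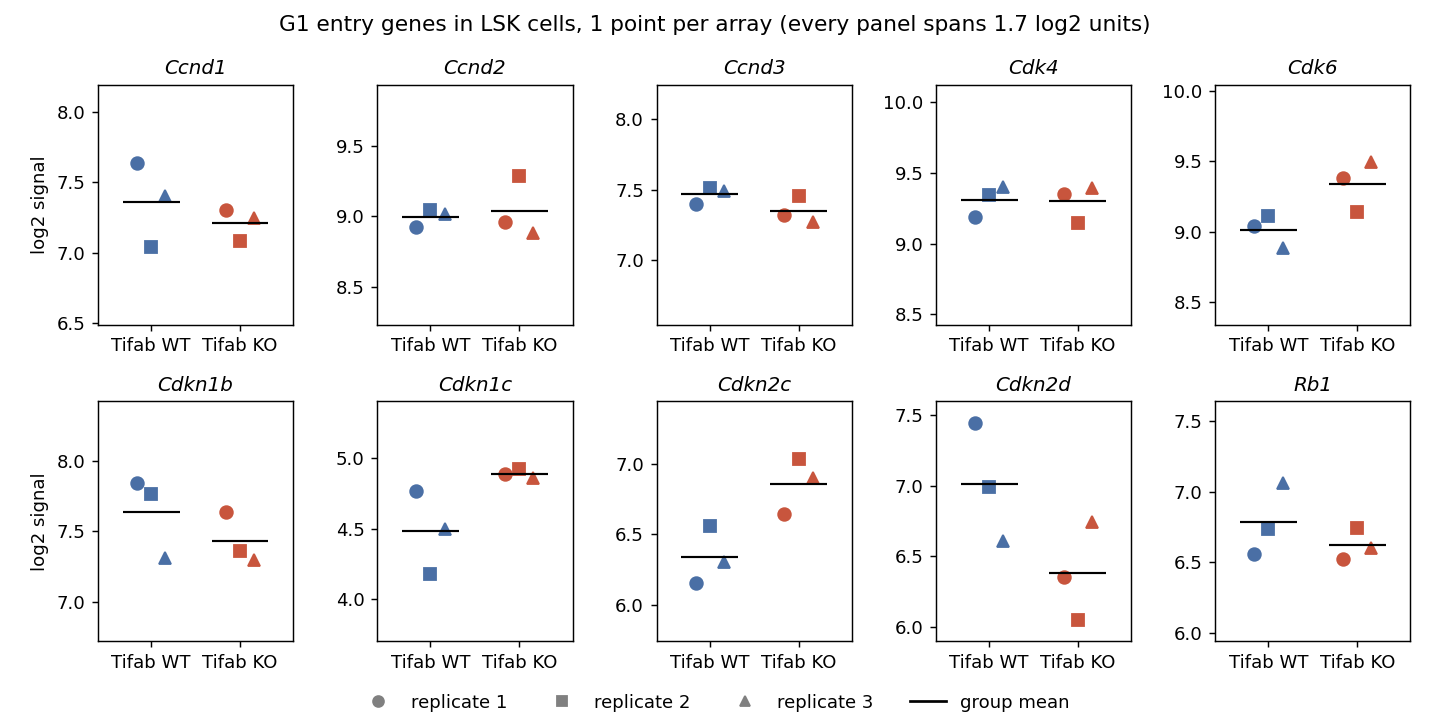
Log2 signal of each G1 entry gene (vertical axis, every panel spanning the same range) in the 3 Tifab WT and 3 Tifab KO arrays, with marker shapes for replicate numbers and a bar at each group mean. The KO points of Cdk6, Cdkn1c and Cdkn2c all lie above the WT points, and those of the other 7 genes overlap the WT points.

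For all 3 D cyclins the WT and KO arrays overlapped. Ccnd1, the D cyclin with broad expression across tissues, read 7.64, 7.04 and 7.40 in the WT arrays and 7.30, 7.08 and 7.25 in the KO arrays. All KO values lay inside the WT range, and the change was -0.15 ± 0.17 (SE, n = 3 per group, 95% interval -0.54 to 0.24), or -0.01 without WT replicate 1 and -0.31 without WT replicate 2. It was -0.086 without KO replicate 2. Ccnd2, a D cyclin prominent in blood progenitors, read 8.93, 9.04 and 9.02 in WT and 8.96, 9.28 and 8.88 in KO. Its KO arrays held both the highest and the lowest of the 6 values, with a change of 0.05 ± 0.13 (95% interval -0.24 to 0.34) that turned to -0.021 after quantile normalization. Ccnd3, a D cyclin with roles in lymphoid and erythroid cells, read 7.40, 7.51 and 7.49 in WT and 7.32, 7.45 and 7.27 in KO. Here 2 of the 3 KO arrays lay below every WT array, and the change was -0.12 ± 0.13 (95% interval -0.41 to 0.18). The adjusted p of the D cyclins in limma was 0.790 to 0.929. The intervals reach down to 0.687 of the WT level for Ccnd1 and up to 1.26 times it for Ccnd2, so equal levels are not shown.

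Of the G1 kinases, the arrays were separated for Cdk6 and not for Cdk4. Cdk4 read 9.19, 9.34 and 9.40 in WT and 9.35, 9.15 and 9.40 in KO, a change of -0.01 ± 0.11 (95% interval -0.27 to 0.24, adjusted p = 0.980). Its arrays interleaved. Cdk6 read 9.04, 9.12 and 8.89 in WT and 9.38, 9.14 and 9.50 in KO. All 3 KO arrays lay above all WT arrays, although KO replicate 2 and WT replicate 2 differed by a small margin. The group means were 9.02 ± 0.12 and 9.34 ± 0.18 (SD, n = 3), a change of 0.32 ± 0.13 (SE) or 1.25 times the WT level (95% interval 1.03 to 1.52, unadjusted p = 0.0292, adjusted p = 0.444). The unadjusted p of Cdk6 stayed under 0.05 in 5 of 10 other settings and in 3 of 6 fits that left out 1 array. It was above 0.05 after quantile normalization and cyclic loess, without the intensity trend, without moderation of the spread and with the replicate block, at 0.056 to 0.087.

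The INK4 inhibitors among the 10 genes had differences of opposite sign, Cdkn2c higher and Cdkn2d lower in KO. Cdkn2c, which encodes p18, read 6.15, 6.56 and 6.31 in WT and 6.64, 7.03 and 6.90 in KO. The lowest KO array lay above the highest WT array. Means were 6.34 ± 0.20 and 6.86 ± 0.20 (SD, n = 3), a change of 0.52 ± 0.17 (SE) or 1.43 times the WT level (95% interval 1.10 to 1.87, unadjusted p = 0.0135, adjusted p = 0.383 in limma). Across the fits without 1 array the change stayed between 0.43 and 0.63, with an unadjusted p of 0.0551 without KO replicate 2 and under 0.05 in the other 5. Cdkn2d, which encodes p19, read 7.44, 6.99 and 6.61 in WT and 6.35, 6.05 and 6.74 in KO. In this gene KO replicate 3 exceeded WT replicate 3, so the groups overlapped, while the other 2 KO arrays lay below all WT arrays. Means were 7.01 ± 0.42 and 6.38 ± 0.35 (SD, n = 3), a change of -0.63 ± 0.24 (SE) or 0.646 of the WT level (95% interval 0.442 to 0.946, unadjusted p = 0.0290, adjusted p = 0.443). This difference was the largest in size among the 10 genes and depended on single arrays. It was -0.41 without WT replicate 1 and -0.46 without KO replicate 2, but -0.83 without WT replicate 3 and -0.81 without KO replicate 3. The unadjusted p in limma stayed under 0.05 in 2 of 6 fits that left out 1 array and in 9 of 10 other settings. It was 0.116 without moderation of the spread.

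**Figure D2:**
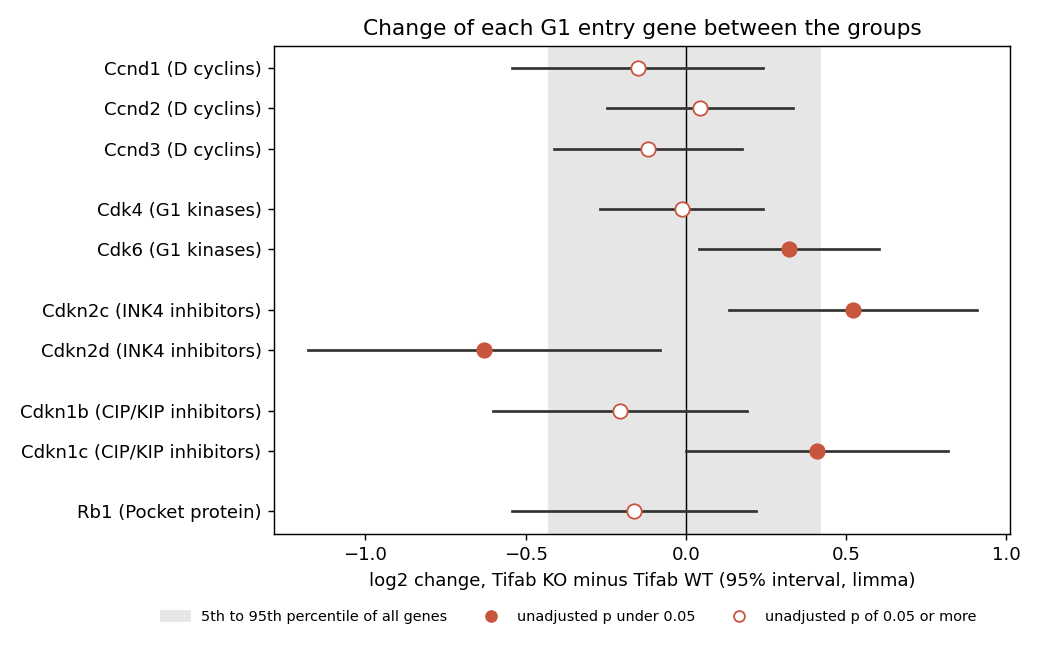
Change of each gene between the groups (horizontal axis, log2, KO minus WT, with the 95% interval from limma), ordered by role, with the 5th to 95th percentile of all genes shaded from -0.43 to 0.42. Filled points mark an unadjusted p under 0.05 and open points the rest, and Cdkn2c and Cdkn2d lie outside the shaded range on opposite sides.

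Of the CIP/KIP inhibitors, Cdkn1b, which encodes p27, read 7.84, 7.76 and 7.31 in WT and 7.64, 7.36 and 7.30 in KO. The arrays overlapped, with a change of -0.21 ± 0.18 (SE, 95% interval -0.60 to 0.19, adjusted p = 0.715). It was -0.37 without WT replicate 3 and -0.31 without KO replicate 1, and -0.10 without WT replicate 1 (unadjusted p from 0.051 to 0.60). Cdkn1c, the p57 gene and an imprinted gene expressed from the maternal copy, read 4.77, 4.18 and 4.50 in WT and 4.89, 4.92 and 4.86 in KO. Its KO arrays were close together and all above the WT arrays, of which replicate 1 came near them. The signal of Cdkn1c was low, near the median of 4.42 over all genes, and whether it lies above background was not tested. The change was 0.41 ± 0.18 (SE) or 1.33 times the WT level (95% interval of the log2 change 0.0014 to 0.82, unadjusted p = 0.0494, adjusted p = 0.487). Genes in the same decile of mean signal as Cdkn1c had a median change of 0.06. Without WT replicate 2, its lowest array, the change was 0.26, and of the 6 fits with 1 array left out the unadjusted p stayed under 0.05 only in that without WT replicate 1. It did so in 3 of 10 other settings, being 0.076 without moderation of the spread, 0.072 after cyclic loess and 0.065 with the replicate block.

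Rb1, the substrate of the cyclin D kinases, read 6.56, 6.74 and 7.06 in WT and 6.52, 6.74 and 6.60 in KO, a change of -0.16 ± 0.17 (SE, 95% interval -0.54 to 0.22, adjusted p = 0.774). The arrays overlapped, and the change was -0.28 without WT replicate 1 and -0.02 without WT replicate 3. Rb1 was the only one of the 10 with a further probe set annotated to it alone, dimmer, with a change of -0.37 ± 0.30 (SE). A pair of brighter probe sets is annotated to both Rb1 and Lpar6, a receptor gene that lies inside Rb1, and cannot be assigned to either. These had changes of 0.19 ± 0.13 and -0.05 ± 0.23 (SE), so the sign differed between probe sets. The errors of the 3 further probe sets come from a separate limma fit over all 41345 probe sets.

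Differences within an array between family members were compared for 6 pairs, by exact permutation of the 6 arrays (two-sided), where 0.1 is the smallest p that 3 against 3 arrays can give. Cdkn2c minus Cdkn2d was -1.29, -0.43 and -0.30 in the WT arrays and 0.29, 0.98 and 0.16 in the KO arrays. All KO values were higher, and the shift between the groups was 1.15 ± 0.40 (SE, n = 3, exact p = 0.1, adjusted over the 6 pairs 0.15). Cdk4 minus Cdk6 was 0.15, 0.23 and 0.51 in WT and -0.03, 0.01 and -0.10 in KO, lower in all 3 KO arrays, a difference of -0.33 ± 0.11 (SE, exact p = 0.1, adjusted 0.15). Cdkn1b minus Cdkn1c also lay entirely below the WT range in KO, with a shift of -0.61 ± 0.25 (SE, exact p = 0.1, adjusted 0.15), or -0.40 without WT replicate 2. Ccnd2 minus Ccnd3 separated the groups by a smaller amount, 0.16 ± 0.07 (SE, exact p = 0.1, adjusted 0.15), with 1.53 in each WT array and KO values of 1.64, 1.83 and 1.61, and it was 0.093 without KO replicate 2. The pairs of Ccnd1 with Ccnd2 and Ccnd3 overlapped (exact p = 0.4 and 1.0). No pair could reach 0.05 in this design.

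**Figure D3:**
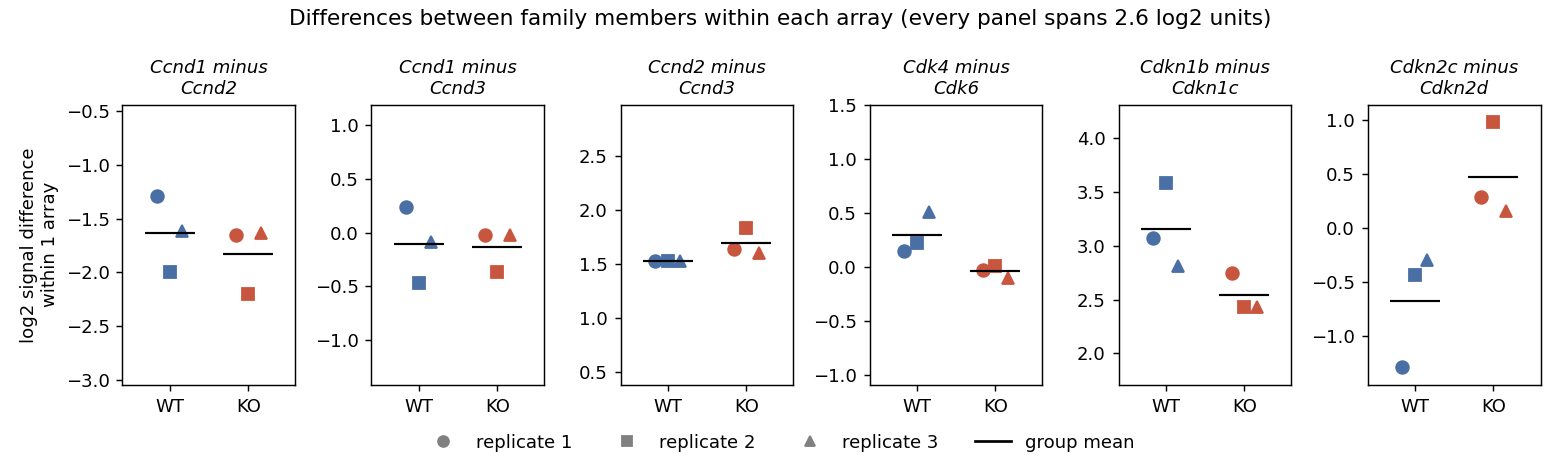
Difference in log2 signal between 2 genes of a family within each array (vertical axis, every panel spanning the same range), for 3 WT and 3 KO arrays, with bars at group means. Only the shift between WT and KO is informative, and it is largest for Cdkn2c minus Cdkn2d, where WT lies between -1.29 and -0.30 and KO between 0.16 and 0.98.

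**Figure D4:**
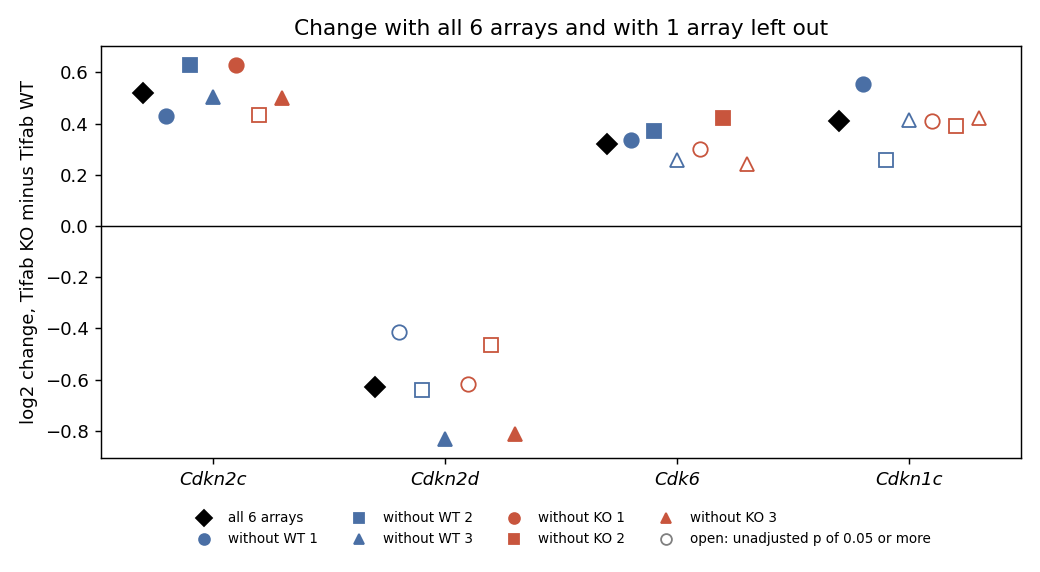
Log2 change (vertical axis, KO minus WT) of the 4 genes with an unadjusted p under 0.05, with all 6 arrays (diamonds) and with each array left out (other markers, coloured by the group of the array left out). Signs do not turn in these fits, while open markers, for an unadjusted p of 0.05 or more, appear for every gene, from 1 of 6 for Cdkn2c to 5 of 6 for Cdkn1c.

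Other genes of the G1 and S phase switch were described from lists. Of 27 measured genes of the remaining G1/S machinery, 1 had a higher and 2 a lower value in KO at an unadjusted p under 0.05, and 24 did not reach it. This is 11.1%, near the 10.3% of all genes. The higher value was that of E2f5, a repressor E2F. It read 5.01, 4.59 and 5.53 in WT and 5.91, 5.93 and 5.56 in KO, a change of 0.76 ± 0.24 (SE). The lower values belonged to Rbl1, the gene of the RB relative p107, at -0.37 ± 0.15 (SE), and Cdkn1a, the gene of the CIP/KIP inhibitor p21, at -0.42 ± 0.18 (SE). Ccnh, the cyclin of the CDK-activating kinase, had 0.32 ± 0.16 (SE) without reaching an unadjusted p under 0.05. The kinase and cyclin that act after CDK4 and CDK6 did not reach this level either, with Cdk2 at -0.18 ± 0.17 and Ccne1 at 0.15 ± 0.20 (SE). E2f1 did not reach it, at -0.04 ± 0.15 (SE). The median of the list was 0.06.

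Among 16 measured genes for turnover of D cyclins and p27, 1 reached an unadjusted p under 0.05. This was Cks1b, the cofactor with which SKP2 targets p27, at 7.09, 7.27 and 7.05 in WT and 6.81, 6.61 and 6.82 in KO (-0.39 ± 0.14, SE). All its KO arrays lay below the WT arrays. Gsk3b, a kinase that marks cyclin D1 for destruction, had 0.41 ± 0.19 and the ubiquitin ligase component Skp1 0.18 ± 0.12 (SE). Of 18 measured mitogen and quiescence inputs, 1 was higher and 1 lower: Mycn, a MYC family gene, at 0.48 ± 0.15 (SE), and Foxo3, a transcription factor that maintains stem cell quiescence, at -0.40 ± 0.17 (SE). Myc had 0.25 ± 0.13 (SE). The list medians were -0.04 and 0.04, and the shares called, 6.25% and 11.1%, were below and near that of all genes.

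Genes that act once G1 is passed were mixed. Among 23 measured E2F targets of S phase, 3 had higher and 1 lower values at an unadjusted p under 0.05, with a median of 0.02. This is 17.4%, beside 10.3% of all genes (4.74% higher and 5.51% lower in KO). Ccna2, the S phase cyclin, had 0.40 ± 0.14, the ribonucleotide reductase gene Rrm2 0.50 ± 0.20 and Dut 0.30 ± 0.13 (SE). The thymidine kinase gene Tk1 was lower, at -0.34 ± 0.13 (SE). In the mitosis list 0 of 18 measured genes reached an unadjusted p under 0.05 in limma, 13 were nominally higher and the median was 0.06. Ccnb2 had 0.31 ± 0.16, Tpx2 0.25 ± 0.14 and Aurkb -0.19 ± 0.13 (SE).

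**Figure D5:**
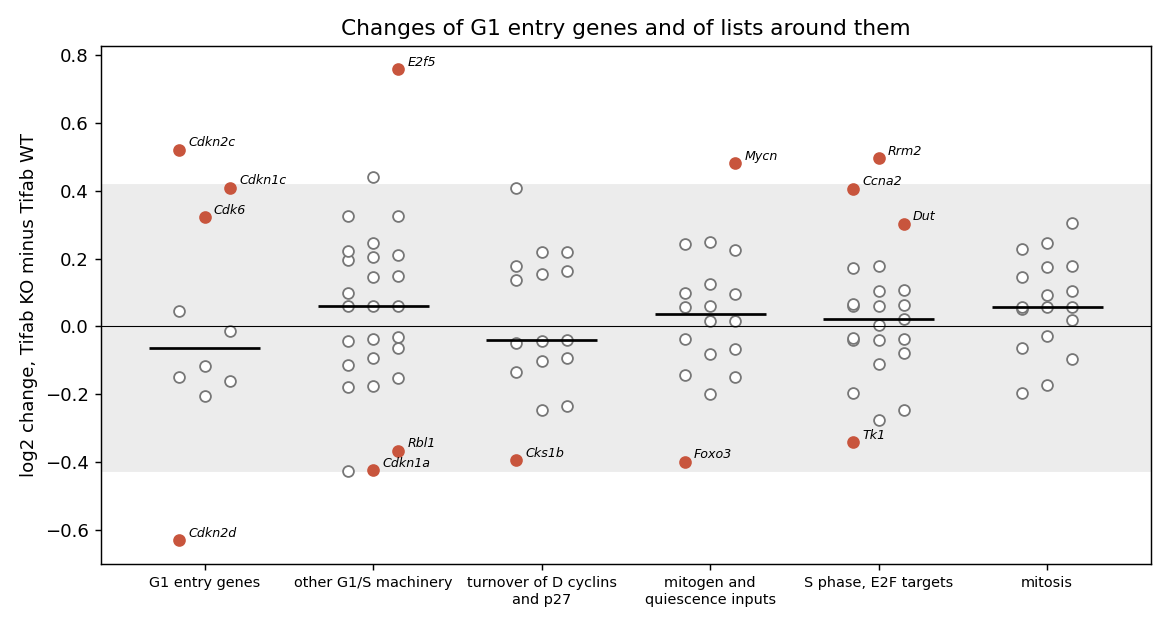
Log2 change (vertical axis, KO minus WT) of every measured gene in 6 lists, with a bar at each list median and the 5th to 95th percentile of all genes shaded. Filled, named points have an unadjusted p under 0.05: there are 4 of 10 among the G1 entry genes, 4 of 23 in the S phase list and 0 of 18 in the mitosis list, beside 10.3% of all genes.

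The profile of Cdkn2c over the 6 arrays, each gene taken relative to its own mean, was nearest to those of Ubfd1, Creld1 and Sult1a1 among 11089 genes brighter than the median. The root mean square distances were 0.04, 0.07 and 0.08 log2 units. Their own changes were 0.51, 0.43 and 0.49, and being near that of Cdkn2c follows from how these genes were chosen.

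Because these genes vary with cell type, markers of the cells an LSK sort can hold were read in the same arrays. Long-term stem cell markers had 1 of 14 measured genes higher (Meis1, 0.39 ± 0.13, SE) and 1 lower (Hlf, -0.33 ± 0.13, SE) at an unadjusted p under 0.05, with a summed linear signal of 1693 to 1756 in WT and 1747 to 1946 in KO. Fgd5 had 0.42 ± 0.21 (SE). Multipotent progenitor markers had 1 of 12 higher, the granule protease gene Ctsg at 0.41 ± 0.10 (SE), and sums of 11017 to 13245 in WT and 12744 to 14034 in KO. Elane had 0.51 ± 0.24 and the lymphoid gene Dntt -0.25 ± 0.11 (SE). Eosinophil, basophil and mast cell markers had 3 of 9 lower, Prg2 at -1.75 ± 0.73, Epx at -0.89 ± 0.35 and Ms4a2 at -0.57 ± 0.22 (SE), with sums of 904 to 1337 in WT and 489 to 1339 in KO. Prg2 was low in KO replicates 1 and 3 (6.44 and 6.38) and at 9.65 in KO replicate 2. Ms4a2 was dim, at 3.14 to 4.39 over the 6 arrays. In the same list 2 genes were nominally higher, Mcpt8 at 0.26 and Gzmb at 0.16. The remaining genes, Cpa3, Prss34, Fcer1a and Hdc, had -0.02, -0.01, -0.10 and -0.21. Neutrophil markers had 2 of 12 lower, Mmp8 at -0.85 ± 0.24 and Cd177 at -0.42 ± 0.18 (SE), with sums of 6576 to 7792 in WT and 6244 to 7947 in KO. In this list 10 genes were nominally lower, among them S100a8, S100a9 and Ngp at -0.06, -0.01 and -0.05. The 2 higher ones were Camp at 0.33 and Ly6g at 0.18. Over all genes 10.3% reached an unadjusted p under 0.05 in limma, 4.74% with higher and 5.51% with lower values in KO. None reached this level among 10 B and plasma cell, 7 erythroid, 9 T and NK cell, 3 LSK sort and 8 lineage markers measured, where the sums were 5403 to 8666, 1304 to 1449, 893 to 1202, 2554 to 2642 and 252 to 414 in WT and 7189 to 7746, 1150 to 1344, 950 to 962, 2596 to 2826 and 279 to 343 in KO. The sums are weighted to bright genes. Ighm, at 12.14 to 12.64 over the 6 arrays, is in both the multipotent progenitor and the B and plasma cell lists. Nkg7, at 9.62 to 10.06, is by far the brightest gene of the T and NK cell list. The sums therefore do not measure the amount of a cell type. The part of the cell types named here in the values of the 10 genes was not tested.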

How the data were processed

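The 6 arrays, Affymetrix MoGene ST, gave 1 table of log2 probe set signals as deposited by the authors. They were made with Affymetrix Expression Console, per the submitters' processing notes. Its version, normalization and summary method are not given in the sources. If arrays were scaled to each other, a change in RNA content per cell cannot be seen. The number of arrays limits the precision.

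Probe sets were named from the platform annotation: 23521 of 41345 had 1 symbol, 1814 had several and were left out, and 16010 were not listed. The brightest probe set stood for a gene, which left 22180 genes. WT and KO were compared in limma 3.58.1 (R 4.3.3; lmFit, eBayes with an intensity trend, two-sided, Benjamini-Hochberg over all genes), tested on simulated data. Family pairs were compared by exact permutation. Marker sums add the linear signals of a list. Alternatives were other eBayes settings, array weights, normalizations, a filter on dim genes, mean probe sets, a replicate block and each array left out. The 10 genes, the lists and the tests were chosen with earlier results of these data known. By rule the text names all 10 genes, up to 4 genes with the smallest p of the G1/S list and 3 of each other list, Cdkn1a, Ccne1, Cdk2, E2f1, and the 3 profiles nearest to that of the member with the smallest p. Dut and further marker genes are named beside these to show how the rest of a list read. Tifab, Kit, Cd34 and the lineage markers serve as checks. Replicates are numbered in the sample titles and were treated as separate mice, which the titles do not state.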

Additional observations from a re-analysis of the deposited data

How the results depend on the processing

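At an unadjusted p under 0.05 the count of 4 genes became 1 without moderation of the spread, 2 after quantile normalization, 2 after cyclic loess and 2 with the replicate number as a block, and 1 to 3 with 1 array left out. Over all genes 7.35% to 12.2% were called with 1 array left out. The share of all genes is not given for the other settings. The groups did not overlap for 3 to 5 genes with 1 array left out, where 24.7% to 30.1% of all genes were separated, and 0 to 1 of all genes then passed the adjusted threshold. Ccnd2 turned to -0.021 after quantile normalization and -0.017 after cyclic loess, and ran from -0.076 to 0.13 with 1 array left out. Cdk4 ran from -0.073 to 0.063, and the difference Ccnd1 minus Ccnd3 from -0.21 to 0.14. The other 8 genes and 5 pairs kept their sign under every alternative run. No pairing by replicate number was seen: deviations of same-numbered arrays correlated at 0.02, -0.03 and -0.09 across genes, and 1 of 6 arrays correlated best with its own number. These values cannot show whether same-numbered samples were handled together. With Rb1 read from the brightest probe set shared with Lpar6, an alternative chosen after seeing the data, its change was -0.05. In the limma fit over all 41345 probe sets the unadjusted p was 0.0542 for Cdkn2d and 0.0693 for Cdkn1c.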
